A study of Mus musculus with 2 samples.

Results

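The cells described here are 932 muscle progenitors from a clone labelled MyoD-KO (KO), in 2 groups that differ in their transcript count for Myf5. They were chosen by measured values: both groups passed the same gate, and the Myf5 count then placed each cell. The gate kept KO cells with at least 1000 genes detected, at most 15% mitochondrial counts and at least 20000 unique molecular identifiers (UMIs, counts of distinct captured transcripts). It further asked for at least 1 UMI of Pax7, at most 1 UMI of Myog, under 0.5% of UMIs from Acta1, Actc1, Myh3, Mylpf and Myl1, and under 1 UMI per 10000 from Crabp1, Twist2 and Dcn. Of 7670 KO barcodes, 5782 passed the gene and mitochondrial filter, 5383 the depth limit, 4086 the Pax7 limit, 2590 the Myog limit, 2579 the sarcomere limit and 2491 the fibroblast limit. The 623 cells in the top 25% by Myf5 per 10000 UMIs are called Myf5-high, and the 309 cells with no Myf5 UMI are called Myf5-zero. The other 1559 cells lie between. Both libraries together hold 15861 barcodes.

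Mouse embryonic fibroblasts of the strain labelled Myod1tm1Jae, either MyoD-WT (WT) or MyoD-KO, had been turned into proliferating muscle precursors by overexpressing the transcription factor Myf6 together with forskolin at 5 µM, RepSox at 5 µM and CHIR99021 at 3 µM. Forskolin raises cyclic AMP, RepSox inhibits the TGF-beta type I receptor and CHIR99021 inhibits the kinase GSK3. The culture also held bFGF at 10 ng/mL, and colonies able to grow without the Myf6 vector were picked, expanded and sequenced at passage 4 on a droplet platform that tags transcript 3′ ends. Each genotype was 1 clone and 1 library, both groups of cells came from the same KO library, and the WT library served only for comparison. There are no replicates, no test was made, and every interval below covers counting error only.

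Myf5 and MyoD (gene Myod1) are closely related basic helix-loop-helix (bHLH) transcription factors that commit embryonic cells to the muscle lineage, and either can do much of the work of the other. In adult muscle, Pax7 marks the satellite cell, the resident stem cell, and most satellite cells also transcribe Myf5. Activated cells divide as myoblasts, then switch on myogenin (Myog), leave the cell cycle and fuse.

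Myf5 (ENSMUSG00000000435) gave 9348 UMIs in the 2491 gated KO cells, a level of 91.6 CPM (UMIs scaled to a total of 1000000 per group of cells). The median cell had 3 Myf5 UMIs, the highest had 27, and 309 cells (12.4%) had none. If every cell had held Myf5 at this common level, Poisson sampling at the observed depths would leave 94.1 cells (3.78%) at 0 and give 2.68 cells with 15 UMIs or more, against 309 and 28 observed. The counts were thus spread more widely than sampling from a common level gives, while a part of the Myf5-zero cells is what such sampling alone would leave. By construction Myf5 was at 0 CPM in Myf5-zero cells, and it was at 37.9, 94.8 and 201 CPM in the lower middle, upper middle and Myf5-high cells. The Myf5-high group began at 1.313 Myf5 UMIs per 10000: the 5 cells just inside had 1.314 to 1.318 and the 5 just outside had 1.307 to 1.313. At the other end, the lowest value above 0 was 0.113 per 10000.

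**Figure D1:**
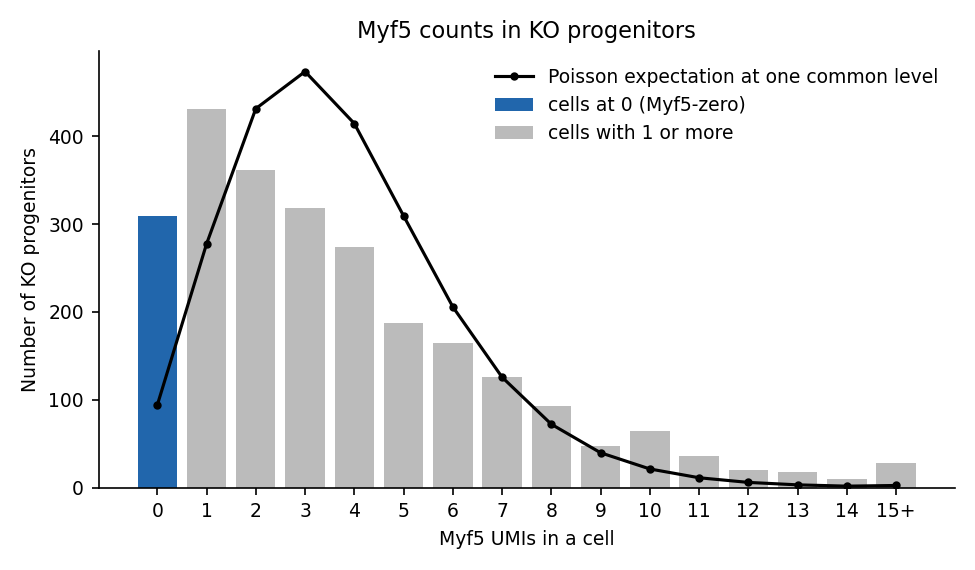
Number of gated KO progenitors (vertical axis, cells) by Myf5 UMIs in the cell (horizontal axis, 15 or more pooled); bars are observed cells, blue for the Myf5-zero group, and the line is the Poisson expectation if all cells shared one level. The observed bars exceed the line at 0 (309 against 94.1 cells) and at 15 or more (28 against 2.68).

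The promoter of Myf5 is shown as the regulatory sequence nearest to the transcript that sorted the cells. It is given as the 250 bases before the RefSeq start in build GRCm38.p6, at chr10:107486135-107486384 on the minus strand, written 5′ to 3′. Searching both strands found none of the 4 motifs tried: CAGCTG (an E-box, bound by bHLH factors), TGANTCA (bound by AP-1), TGACNNNGC (bound by NRF2) and TATAAA (the TATA box). Matches to TGANTCA and TGACNNNGC can overlap. The absence of a match says only that these letters are not in this window.
Myf5: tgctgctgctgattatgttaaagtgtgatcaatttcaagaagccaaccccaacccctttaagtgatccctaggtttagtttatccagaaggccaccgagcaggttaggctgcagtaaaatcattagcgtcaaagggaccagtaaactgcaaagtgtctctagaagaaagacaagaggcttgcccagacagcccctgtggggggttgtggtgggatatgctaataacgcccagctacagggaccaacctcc

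The groups were close in depth and mitochondrial share. Median depth was 37378 UMIs in Myf5-high and 34413 in Myf5-zero cells, with a median of 6246 and 6022 genes detected and 7.47% and 7.35% mitochondrial UMIs. With each cell thinned to 20000 UMIs, a depth every gated cell reached, cell cycle scoring placed 30.5% (95% exact interval 26.9 to 34.3) of Myf5-high and 24.6% (19.9 to 29.8) of Myf5-zero cells in S phase. The G2M shares were 43.3% (39.4 to 47.3) and 47.6% (41.9 to 53.3), and the G1 shares 26.2% and 27.8%. The intervals of the 2 groups overlapped for S and for G2M. Scrublet, a doublet caller, marked 8 Myf5-high and 0 Myf5-zero cells, which were kept since the gate did not remove them. The WT and KO libraries shared 14 barcode sequences.

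Progenitor markers were present in both groups. For comparison, the same KO library holds 195 fibroblast-marker-rich cells, with at least 3 UMIs per 10000 from Crabp1, Twist2 and Dcn, and 444 sarcomere-rich cells, with at least 5% of UMIs from the 5 sarcomere genes of the gate. The muscle cadherin gene Cdh15 was at 216 CPM in Myf5-high and 209 CPM in Myf5-zero cells, against 43.8 CPM in fibroblast-marker-rich KO cells. Fgfr4, an FGF receptor gene of muscle progenitors, was at 228 and 184 CPM against 19.4 CPM there and 19.9 CPM in sarcomere-rich cells. Heyl, a Notch target of satellite cells, was at 104 and 102 CPM against 25.9 and 6.09 CPM in those cells, and Vcam1 at 51.1 and 41.3 CPM against 19.8 and 2.61 CPM. Not every marker set the progenitors apart. Cdh15 was at 123 CPM in sarcomere-rich cells, Itga7 (integrin alpha-7), at 79.2 and 72.3 CPM, reached 175 CPM there, and Sdc4, at 68.1 and 124 CPM, reached 159 CPM in fibroblast-marker-rich cells. Des (desmin), which muscle cells keep making as they mature, was at 684 and 722 CPM against 4991 CPM in sarcomere-rich cells. The summed level of 8 differentiated muscle markers was 710 and 676 CPM, against 75836 CPM in sarcomere-rich cells. These markers include the 5 sarcomere genes of the gate, whose sum was capped in both groups and had to be high in sarcomere-rich cells. The definitions thus set most of that gap, and it is no separate evidence of progenitor state. Of the other markers, Ttn was at 33.8 and 29.97 CPM against 4946 CPM. Tnnt3 was at 30.8 and 26.3 CPM against 2792 CPM, and Ckm at 13.5 and 12.4 CPM against 1251 CPM.

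Of the genes the gate used, Pax7 differed between the groups although both had to have it. Pax7, at a median of 8 UMIs per Myf5-high and 5 per Myf5-zero cell, stood at 233 and 185 CPM, a ratio of 1.26 (1.20 to 1.33). A single Pax7 UMI carried 25 Myf5-high cells (4.0%) and 39 Myf5-zero cells (12.6%) through the gate. The sarcomere genes that had to be low were level, with Acta1 (skeletal actin) at 215 and 209 CPM and Mylpf (a fast light chain) at 154 and 151 CPM. Myogenin transcripts stood at 9.69 and 10.6 CPM. Crabp1 was at 1.66 and 1.78 CPM, Twist2 at 1.01 and 1.60 CPM and Dcn at 0.283 and 0.356 CPM. After thinning, Pax7 was found in 10.4% and Myf5 in 24.5% of the 444 sarcomere-rich KO cells (median depth 52296 UMIs), differentiated cells in which both genes are normally low. The source of these UMIs was not tested. A single Myf5 or Pax7 UMI is thus within what such cells also showed, whereas the median Myf5-high cell had 7 Myf5 UMIs.

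MyoD itself did not follow Myf5 in the KO cells. Myod1 (ENSMUSG00000009471) was at 55.9 CPM in Myf5-high and 54.7 CPM in Myf5-zero cells, a ratio of 1.02 (0.929 to 1.13), and was found in 57.6% and 55.3% of thinned cells. Which stretch of Myod1 the KO allele lacks is not given in the sources used here, and a 3′ tag outside it would still be counted, so these UMIs do not check the knockout. In WT cells grouped by the same gate and rule, Myod1 was at 99.2 CPM in Myf5-high and 118 CPM in Myf5-zero cells, a ratio of 0.839 (0.807 to 0.873).

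Myf6, whose gene lies beside Myf5 and which was also the conversion factor, was at 8.48 CPM (210 UMIs) and 4.62 CPM (52 UMIs), a ratio of 1.83 (1.35 to 2.54). This is under the 10 CPM asked of a gene before it was counted as different. Its thinned share was 12.5% of Myf5-high and 8.74% of Myf5-zero cells, against 7.18% of fibroblast-marker-rich KO cells. In sarcomere-rich KO cells Myf6 was found in 81.8%, at 131 CPM. Myf6 RNA from the gene and from the vector cannot be told apart. The log2 ratio of Myf6 between the groups was 0.05 among S cells and 1.83 among G2M cells. Pax3, the embryonic relative of Pax7, was at 5.98 and 6.05 CPM. Of 3 other genes near Myf5 on its chromosome with at least 10 CPM, Lin7a, which encodes a scaffold protein, was at 64.4 and 40.3 CPM (1.60-fold), while Ppp1r12a, a myosin phosphatase subunit, was at 161 and 140 CPM and Acss3 at 24.2 and 20.2 CPM.

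Across the transcriptome a modest set of genes separated the groups. A gene was counted as higher or lower when summed UMIs gave at least a 1.5-fold difference with at least 10 CPM in the higher group, and genes with that level in either group are called measured here. Of 8588 measured genes, 161 (1.87%) were higher in Myf5-high cells and 253 (2.95%) were lower, Myf5 itself left out. The median log2 ratio of all measured genes was 0.02. The 161 and 253 genes came from the contrast that defined the cells, so the counts describe these cells and carry no test.

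**Figure D2:**
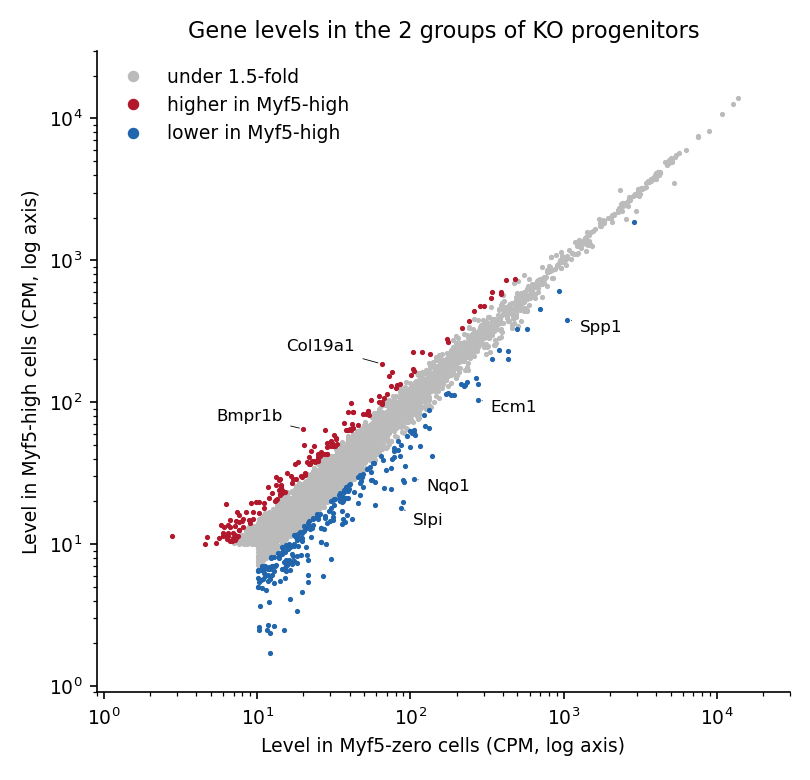
Level of each measured gene in Myf5-zero cells (horizontal axis) and Myf5-high cells (vertical axis), both in CPM on log axes; red points are at least 1.5-fold higher and blue points at least 1.5-fold lower in Myf5-high cells. Most genes lie near the diagonal, with Bmpr1b and Col19a1 above it and Spp1, Ecm1, Nqo1 and Slpi below.

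Among the 12 genes with the highest ratios were a BMP receptor gene and 2 collagen genes. Bmpr1b (ENSMUSG00000052430), a type I receptor for bone morphogenetic proteins (BMP), was at 64.7 CPM against 20.01 CPM, 3.23-fold higher (2.81 to 3.73). After thinning it was found in 41.1% of Myf5-high and 18.8% of Myf5-zero cells, and in 11.3% of sarcomere-rich KO cells. Col19a1, a collagen of the basement membrane zone, was at 186 CPM against 65.2 CPM, 2.85-fold higher (2.64 to 3.09), and was found in 60.4% and 32.0% of cells. Col19a1 was also found in 69.6% of sarcomere-rich KO cells, at 124 CPM. The other genes among the 12 highest ratios were between 1.92-fold and 2.42-fold higher. They included the neuronal-type membrane and adhesion genes Nkain2 (99.03 against 41.0 CPM), Pcdh17 (63.4 against 27.5 CPM), Nrxn3 (84.8 against 39.1 CPM) and Lsamp (164 against 76.2 CPM). Car3, a carbonic anhydrase abundant in muscle, was at 152 against 72.5 CPM, and Col6a6, a collagen VI chain, at 85.4 against 41.9 CPM. In sarcomere-rich cells Car3 was at 1229 CPM and Nrxn3 at 66.7 CPM. Nkain2 was at 19.98, Pcdh17 at 2.00, Lsamp at 9.56 and Col6a6 at 3.23 CPM there. Of the transcription factors among the 12, Ebf3 was at 71.4 against 37.1 CPM and Npas3 at 227 against 118 CPM. Npas3 was the only gene of these 12 that fell short of 1.5-fold in thinned cells with groups drawn again (log2 ratio 0.553). That drawing gave 723 Myf5-high and 672 Myf5-zero cells, so cells with Myf5 UMIs at full depth joined the Myf5-zero group. Every log2 ratio for thinned cells uses these groups, while shares of thinned cells keep the 623 and 309 cells. How far the changed groups shift these ratios was not tested. B3galt1, a galactosyltransferase gene, was at 225 against 104 CPM, and Frmd3, which encodes a FERM domain protein, at 85.6 against 42.0 CPM.

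The 12 genes with the lowest ratios included those of several secreted proteins. Nqo1, a quinone reductase and a classical NRF2 target, was at 28.8 CPM in Myf5-high and 105 CPM in Myf5-zero cells, 3.65-fold lower (3.33 to 4.02). It was found in 29.4% and 53.7% of thinned cells, and in 5.63% of sarcomere-rich cells. Gsta4, a glutathione S-transferase, was 3.32-fold lower (27.2 against 90.3 CPM). Areg (amphiregulin), a ligand of the EGF receptor, was 3.29-fold lower (41.9 against 138 CPM) and was found in 20.4% and 32.0% of cells. Spp1 (osteopontin), a secreted phosphoprotein, was 2.77-fold lower (382 against 1058 CPM), and Ecm1, a secreted matrix protein, 2.66-fold lower (104 against 276 CPM). Prkcb, a protein kinase C, was at 19.9 against 89.8 CPM and Oaf at 28.5 against 89.8 CPM. Sncg (gamma-synuclein) was at 24.4 against 74.3 CPM, Fbln2 (fibulin-2, a matrix glycoprotein) at 24.8 against 67.1 CPM and Igfbp6, which binds insulin-like growth factors, at 35.7 against 92.4 CPM.

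UMIs of Slpi and Ebf1 were concentrated in few cells. Slpi, a secreted protease inhibitor, had the lowest ratio of the 12, at 17.9 against 86.4 CPM or 4.84-fold lower, but 5 of the 309 Myf5-zero cells held 71.5% of that group's Slpi UMIs. Its thinned share was 15.9% in Myf5-high and 16.8% in Myf5-zero cells, against 14.2% (11.1 to 17.8) in sarcomere-rich cells, an interval that holds both shares. With at least 5 Pax7 UMIs asked of each cell, an alternative chosen after seeing the data, its log2 ratio was 0.17. Ebf1, a transcription factor, was at 18.9 against 58.5 CPM. In each group 5 cells held 49.7% of the Myf5-high and 52.6% of the Myf5-zero Ebf1 UMIs. The log2 ratio of Ebf1 was 1.36 among S cells and -0.128 with at least 5 Pax7 UMIs. The 5 richest Myf5-zero cells held 30.1% of the Areg, 26.8% of the Spp1 and 12.7% of the Nqo1 UMIs.

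Promoters of Nqo1, Areg and Ecm1 are printed because they share a TATA box at the usual distance from the start, a feature the cell rule did not use. Each is the 250 bases before the RefSeq start in GRCm38.p6, 5′ to 3′, with motif matches in capitals. Nqo1 is at chr8:107403206-107403455 on the minus strand, with TATAAA from 29 to 24 bases before the start. Areg is at chr5:91139349-91139598 on the plus strand, with CAGCTG from 112 to 107 and TATAAA from 31 to 26 bases before the start. Ecm1 is at chr3:95739570-95739819 on the minus strand, with TGANTCA from 64 to 58 and TATAAA from 27 to 22 bases before the start.
Nqo1: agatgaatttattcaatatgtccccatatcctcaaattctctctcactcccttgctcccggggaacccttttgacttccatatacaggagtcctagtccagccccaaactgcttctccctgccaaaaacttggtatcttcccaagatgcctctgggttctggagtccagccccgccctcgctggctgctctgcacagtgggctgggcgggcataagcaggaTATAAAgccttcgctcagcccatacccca
Areg: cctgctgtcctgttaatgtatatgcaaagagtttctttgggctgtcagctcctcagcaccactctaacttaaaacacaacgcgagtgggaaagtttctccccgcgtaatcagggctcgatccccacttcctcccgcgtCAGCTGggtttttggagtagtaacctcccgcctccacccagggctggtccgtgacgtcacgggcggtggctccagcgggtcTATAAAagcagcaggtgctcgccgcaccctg
Ecm1: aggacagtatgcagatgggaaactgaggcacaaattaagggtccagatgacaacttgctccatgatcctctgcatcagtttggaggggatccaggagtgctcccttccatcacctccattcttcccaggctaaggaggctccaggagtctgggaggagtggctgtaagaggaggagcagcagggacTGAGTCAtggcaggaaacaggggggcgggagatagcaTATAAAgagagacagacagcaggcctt

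Promoters were at hand for 11 of the 12 genes with the lowest ratios (13 promoters) and for 11 of the 12 with the highest (17 promoters). TATAAA was present on either strand in 5 of the 13 (38.5%), in 5.88% of the 17 and in 12.4% of all 32851 mouse promoters in the table. Asked to lie between 40 and 20 bases before the start, a window set after the matches were seen, it was in 3 of the 13 (23.1%), none of the 17 and 2.36% of all. CAGCTG was in 15.4%, 17.6% and 13.0%, TGANTCA in 7.69%, 5.88% and 6.75%, and TGACNNNGC in 7.69%, 17.6% and 10.2% of these 3 sets. A match is a description of letters and not a measured binding site.

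Intermediate cells lay between the groups for most of these genes. Over the 4 classes ordered by Myf5, from Myf5-zero through lower and upper middle to Myf5-high, the level climbed at every step for 136 of the 161 higher genes (84.5%), against 15.7% of all measured genes. It dropped at every step for 213 of the 253 lower genes (84.2%), against 14.3% of all. Since the end classes are the ones that selected the genes, only the 2 middle classes add to the contrast. The shares of all measured genes include genes whose end classes are level or reversed, so they are not a like background. Col19a1 was at 65.2, 93.8, 150 and 186 CPM over the 4 classes and Nqo1 at 105, 67.4, 43.6 and 28.8 CPM. Slpi, at 86.4, 44.5, 53.9 and 17.9 CPM, did not keep that order.

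**Figure D3:**
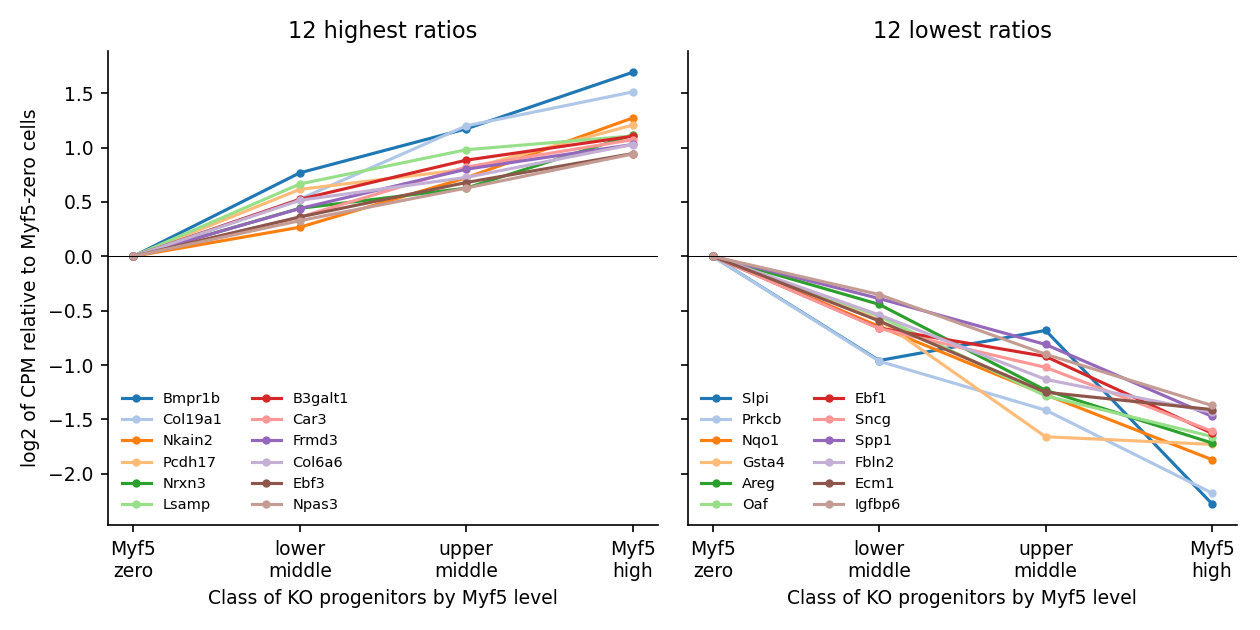
Level of the 12 genes with the highest (left) and the 12 with the lowest (right) ratios in each class of KO progenitors ordered by Myf5, as log2 of CPM relative to Myf5-zero cells. Each line is a gene; all left lines climb and 11 of the 12 right lines descend at each step, Slpi being the exception.

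Among single cells, the transcripts whose level followed Myf5 most closely were not classical muscle regulators. The Pearson correlation of log-scaled levels with Myf5 was taken over the 2491 gated cells of this 1 library for 3256 genes with at least 50 CPM, as a description without a test; depth is shared by all genes of a cell. The 5 highest values were 0.273 for Lama2 (the laminin alpha-2 chain of muscle basement membrane), 0.260 for Tspan7, 0.257 for Nav3, 0.253 for Tmem47 and 0.241 for Ncoa1 (a nuclear receptor coactivator). The median over all genes was 0.008, so all of these are weak. Lama2 was at 599 CPM in Myf5-high and 340 CPM in Myf5-zero cells. In thinned cells with groups drawn again, these 5 genes had log2 ratios from 0.455 (Tmem47) to 0.553 (Lama2), under 1.5-fold.

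The 253 lower genes were mostly high in fibroblast-marker-rich cells of the same clone. In the 195 such cells (median depth 47232 UMIs), 187 of the 253 (73.9%) were at least 1.5-fold above the progenitors between the groups, against 13.1% of all measured genes, and 129 of the 161 higher genes (80.1%) were at least 1.5-fold below, against 29.2%. Slpi reached 11930 CPM there, Spp1 39610 CPM and Areg 1931 CPM. Cells with any Crabp1, Twist2 or Dcn UMI made up 9.0% of Myf5-high and 11.3% of Myf5-zero cells, and cells with 5 or more Slpi UMIs 1.28% (8 cells) and 5.18% (16 cells). The summed level of the fibroblast marker list was 544 CPM in Myf5-high and 521 CPM in Myf5-zero cells, nearly all of it Col3a1 (539 and 515 CPM). The gate capped Crabp1, Twist2 and Dcn, which are in this list, so the sum cannot show whether fibroblast character differed. Of its other members, all scarce, Pdgfra was at 1.37 and 2.40 CPM, Lum at 0 and 0.0889 CPM and Postn at 0.606 and 0.0889 CPM. An alternative chosen after seeing the data kept only cells with no Crabp1, Twist2 or Dcn UMI and at most 1 Slpi UMI. In it 187 genes were higher and 185 lower, of which 148 and 165 were among the 161 and 253. The part that fibroblast-like cells have in the remaining differences was not tested.

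Genes of the satellite cell list, which covers receptors and niche genes of muscle stem cells, were mostly level. Of 18 measured members, 1 was higher and 1 lower, with a median log2 ratio of 0.08. The higher one was Msc (musculin, a bHLH repressor) at 28.4 against 13.9 CPM, and the lower one Sdc4 (syndecan-4) at 68.1 against 124 CPM. Megf10, at 72.9 against 50.8 CPM, and the HGF receptor gene Met, at 65.2 against 47.7 CPM, stayed under 1.5-fold. In the list of Eya, homeobox and related factors, which act upstream of Myf5 in the embryo, 1 of 8 measured members was higher, and the median was 0.25. The higher one was Eya4 at 70.2 against 41.8 CPM. Its log2 ratio was 0.493 in thinned cells with groups drawn again, under 1.5-fold. Eya1 was at 303 against 224 CPM.

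Among signalling lists, members were higher in the BMP and TGF-beta, Wnt and cAMP lists. Of 14 measured BMP and TGF-beta genes 5 were higher and 2 lower. Beside the receptor Bmpr1b, the higher ones included the BMP antagonist Nog (noggin, 19.9 against 9.78 CPM) and the BMP-induced inhibitors of bHLH factors Id3 (477 against 303 CPM) and Id2 (114 against 70.7 CPM). Outside this list, the ligand gene Bmp2 was at 10.1 against 4.54 CPM, but at 9.01 against 18.5 CPM in WT. With cells thinned to 20000 UMIs and the groups drawn again, the log2 ratio was 1.01 for Bmpr1b but 0.405 for Nog, 0.496 for Id3 and 0.425 for Id2, all 3 under 1.5-fold. The ligand Tgfb1, at 4.93 against 10.8 CPM, and the activin antagonist Fst, at 13.4 against 21.8 CPM, were lower, although Fst had a log2 ratio of 0.223 among S cells. Of 7 measured Wnt genes 3 were higher and 0 lower: the R-spondin receptor Lgr5 (48.9 against 23.4 CPM), the R-spondin Rspo3 (31.8 against 15.7 CPM) and Myc (45.1 against 22.5 CPM). Znrf3, which removes Wnt receptors from the surface, was at 118 against 85.1 CPM, under 1.5-fold. In the thinned cells Lgr5, at a log2 ratio of 0.541, was also under 1.5-fold.

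In the FGF list 0 of 10 measured members were higher and 2 lower, the receptor Fgfr1 (113 against 171 CPM) and the ERK-responsive factor Etv4 (11.0 against 19.6 CPM). None of 11 measured Notch genes passed 1.5-fold, with Hes1, a Notch target, nearest at 77.8 against 114 CPM. The cAMP list had Rgs2, a regulator of G-protein signalling, higher at 20.96 against 11.9 CPM and Areg lower among 8 measured members. In the thinned cells the log2 ratio was 0.241 for Rgs2 and -0.447 for Fgfr1, under 1.5-fold.

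Among 13 measured bHLH partners and inhibitors 4 were higher and 1 lower. Snai2, a zinc-finger repressor that competes at E-boxes, was at 19.5 against 9.16 CPM and joined Msc, Id2 and Id3. Its relative Snai1 was at 15.8 against 24.8 CPM. Msc, Id2 and Id3 stand in more than 1 list and are counted in each.

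Genes of the next steps of the muscle course were not higher. Of 14 measured commitment and fusion genes 0 were higher and 2 lower, the TEAD factor Tead4 at 15.7 against 27.7 CPM and Dner at 6.70 against 11.8 CPM. In thinned cells Dner was under 1.5-fold, at a log2 ratio of -0.577. Of 19 measured sarcomere genes 0 passed 1.5-fold in either direction and the median was 0.15. The gate capped sarcomere transcripts and Myog in both groups, which limits what these lists can show.

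Cell cycle genes differed little, with 0 of 43 measured S phase and 0 of 55 measured G2M genes past 1.5-fold and medians of 0.11 and 0.02. A ratio above 1 was found for 34 of the 43 S phase and 29 of the 55 G2M genes. The share of all measured genes above 1 was not counted, and their median log2 ratio was 0.02. Of 19 measured cell cycle exit genes 0 were higher and 2 lower, the CDK inhibitor gene Cdkn2b at 32.4 against 55.7 CPM and the antiproliferative gene Btg2 at 139 against 233 CPM. Among S cells Cdkn2b went the other way, with a log2 ratio of 0.424. Cdkn1c, the CDK inhibitor p57, was the most abundant of these shown, at 3120 against 2336 CPM, a 1.34-fold difference.

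All 16 measured p53 targets had a ratio below 1, and 4 were past 1.5-fold lower. Their median log2 ratio was -0.35, against 0.02 for all measured genes. The hypoxia and glycolysis list also leaned this way, with 16 of 18 measured members below 1 and a median of -0.20. The share of all measured genes with a ratio below 1 was not counted. Of the p53 targets, Trp53inp1 was at 42.0 against 85.8 CPM and the death receptor gene Fas at 11.1 against 22.4 CPM. Mdm2, whose product degrades p53, was at 133 against 226 CPM. Btg2 is also in the p53 list, and Mdm2 was under 1.5-fold in thinned cells, at a log2 ratio of -0.571. Of 17 measured immediate early genes, which respond within minutes to growth factors and to handling, 1 was higher (Myc) and 3 were lower, namely Ier3 (48.5 against 98.9 CPM), Fosl1 (25.3 against 48.9 CPM) and Klf4 (25.2 against 37.8 CPM). The log2 ratio of Klf4 was 0.034 among S cells and -0.337 in thinned cells. In WT cells grouped by the same rule, 0 of 13 measured p53 targets were past 1.5-fold and their median was 0.02. Of all 7757 measured WT genes, only 0.18% were higher and 0.335% lower, and their median was 0.03. The WT values of the p53 list are thus near those of all WT genes.

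Matrix genes of fibroblasts were lower in part. Of 15 measured members of the fibroblast matrix list 0 were higher and 6 lower, with a median of -0.49, including Timp1, an inhibitor of matrix metalloproteinases (203 against 437 CPM), Col6a2 (66.1 against 133 CPM) and Fn1, fibronectin (230 against 431 CPM). A list of secreted and stress genes, taken after earlier results of the KO clone were known, had 0 of 18 measured members higher and 8 lower, so it is no independent evidence of that direction. In the hypoxia and glycolysis list 1 of 18 was lower, Ankrd37 at 10.5 against 19.5 CPM. The summed fibroblast-marker levels given above are nearly all Col3a1 and do not bear on these lists.

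Among markers of other cell types, those of smooth muscle and a few neural ones were at levels like those of some progenitor markers. Of 10 smooth muscle markers 3 were measured and 2 were higher, Acta2 (smooth muscle actin, also made by early muscle cells) at 125 against 80.1 CPM and Tagln (transgelin) at 55.8 against 32.6 CPM, while Cnn1 had no UMI in Myf5-zero cells. The log2 ratio of Tagln was -0.373 among G1 cells, and that of Acta2 was 0.463 in thinned cells, under 1.5-fold. In the 5 richest Myf5-zero cells lay 22.2% of the Acta2 and 29.97% of the Tagln UMIs. The neural list summed to 217 and 196 CPM, mostly from the cytoskeletal genes Map2 (141 and 118 CPM) and Nefl (58.1 and 60.7 CPM). None of its 3 measured members and none of 2 measured cartilage, bone or fat markers passed 1.5-fold, and Sox10, the defining glial factor, was at 0 in both groups. No endothelial or blood marker reached 10 CPM. These summed to 3.31 CPM in Myf5-high and 3.82 CPM in Myf5-zero cells, with the leukocyte gene Ptprc at 0 in both. Lists do not share a size, so their shares are read against the 1.87% and 2.95% of all measured genes.

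**Figure D4:**
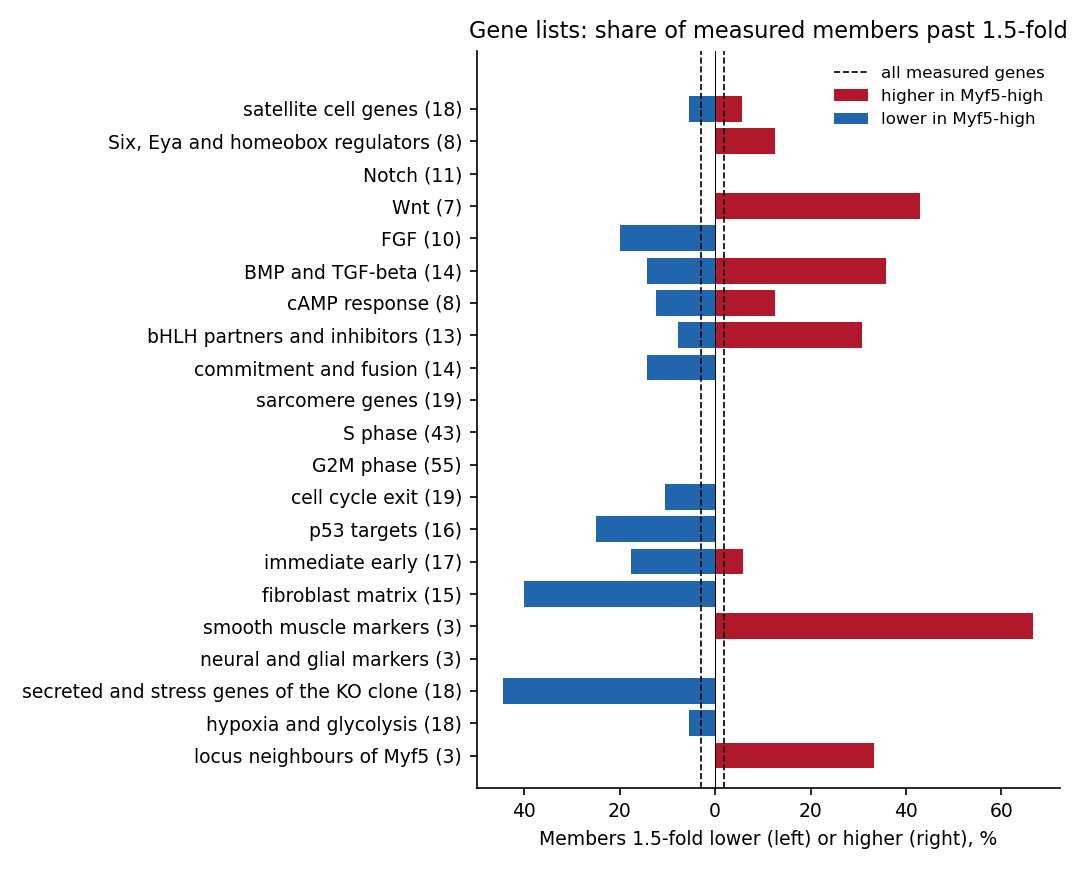
Share of the measured members of each gene list (number in brackets, lists with at least 3) that were at least 1.5-fold lower (blue, left) or higher (red, right) in Myf5-high KO cells, in percent of members. Dashed lines mark 2.95% and 1.87% of all measured genes; the Wnt bar stands for 3 of 7 genes and the fibroblast matrix bar for 6 of 15.

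Long genes were frequent among the higher genes, though not in all of them. By GENCODE M21 annotation (GRCm38), the median genomic span was 96.8 kb for the 161 higher genes, 23.2 kb for the 253 lower genes and 27.5 kb for all measured genes. A span over 100 kb was found for 80 of the 161 (49.7%), 22.6% of the lower genes and 15.4% of all. Of 261 measured genes over 300 kb, 38 (14.6%) were higher and 17 (6.51%) lower. As many, 38 of 1869 (2.03%), were higher among genes under 10 kb, near the 1.87% of all measured genes, and the lower quartile of span of the higher genes was 13.2 kb. Genes over 300 kb together took 29160, 31250, 32840 and 33990 CPM in the 4 classes from Myf5-zero to Myf5-high. In WT cells their sum was 27370 CPM in Myf5-zero and 29090 CPM in Myf5-high cells. Bmpr1b spans 332 kb and Col19a1 326 kb, whereas Nqo1 spans 14.98 kb.

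The same gate and rule in the WT library gave a smaller spread of Myf5 and fewer genes past 1.5-fold. It kept 3836 of 8191 WT barcodes, of which 1996 (52.0%) had no Myf5 UMI, where sampling from a common level would leave 42.7%. The 959 WT Myf5-high cells began at 0.360 per 10000 and had 67.0 CPM of Myf5, against 201 CPM in the KO Myf5-high cells. Of 7757 measured WT genes, 14 (0.18%) were higher and 26 (0.335%) lower in Myf5-high cells. The WT and KO bounds differ, so the counts of the 2 libraries are not matched in Myf5. At the KO bound, an alternative chosen after seeing the data, 45 WT cells were set against the same 1996. Of 7903 genes measured there, 205 were higher and 255 lower, of which 16 and 11 were among the 161 and 253 of KO. Many KO genes were too scarce to be measured in WT: under the same rule, 130 of the 161 and 57 of the 253 were measured. The overlaps are thus not read as shares of 161 and 253. A group of 45 cells carries a large counting error.

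Of the 161 genes higher in KO, 130 were measured in WT, 103 of them (79.2%) had a WT ratio above 1, against 63.2% of all genes measured in both, and their median log2 ratio was 0.12 in WT and 0.74 over all 161 in KO. Of the 253 lower in KO, 57 were measured in WT and 30 of these (52.6%) had a WT ratio below 1, against 36.8% of all. The lower genes were often scarce in WT, as Nqo1 was at 1.86 and 3.46 CPM and Ecm1 at 1.58 and 3.07 CPM. Bmpr1b was abundant in WT, at 292 and 227 CPM, a log2 ratio of 0.36 against 1.69 in KO, and Col19a1 was at 128 and 90.7 CPM. Frmd3 went the other way in WT, at 56.3 and 73.5 CPM.

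Past 1.5-fold in both libraries were 10 genes, 7 in the same direction and 3 (Bmp2, Slc24a2 and Ebf1) in opposite directions, named here because so few. Of the 130 higher KO genes measured in WT, 1 (0.769%) was higher and 2 (1.54%) lower in WT, against 0.0537% and 0.269% of the 7445 genes measured in both. Of the 57 lower KO genes measured in WT, 6 (10.5%) were lower and 1 (1.75%) higher. The gene higher in both was Gm42635. Lower in both were Spp1 (13.8 against 23.4 CPM in WT), the metallothionein gene Mt1 (605 against 927 CPM in KO and 43.3 against 89.4 CPM in WT), the haem oxygenase gene Hmox1 (14.98 against 36.5 CPM and 6.41 against 10.7 CPM), the tetraspanin gene Cd9 (133 against 275 CPM and 10.7 against 18.7 CPM), the adhesion gene Kirrel3 (31.3 against 49.3 CPM and 31.5 against 110 CPM) and the GTPase gene Rhob (9.21 against 15.8 CPM and 12.1 against 19.4 CPM).

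**Figure D5:**
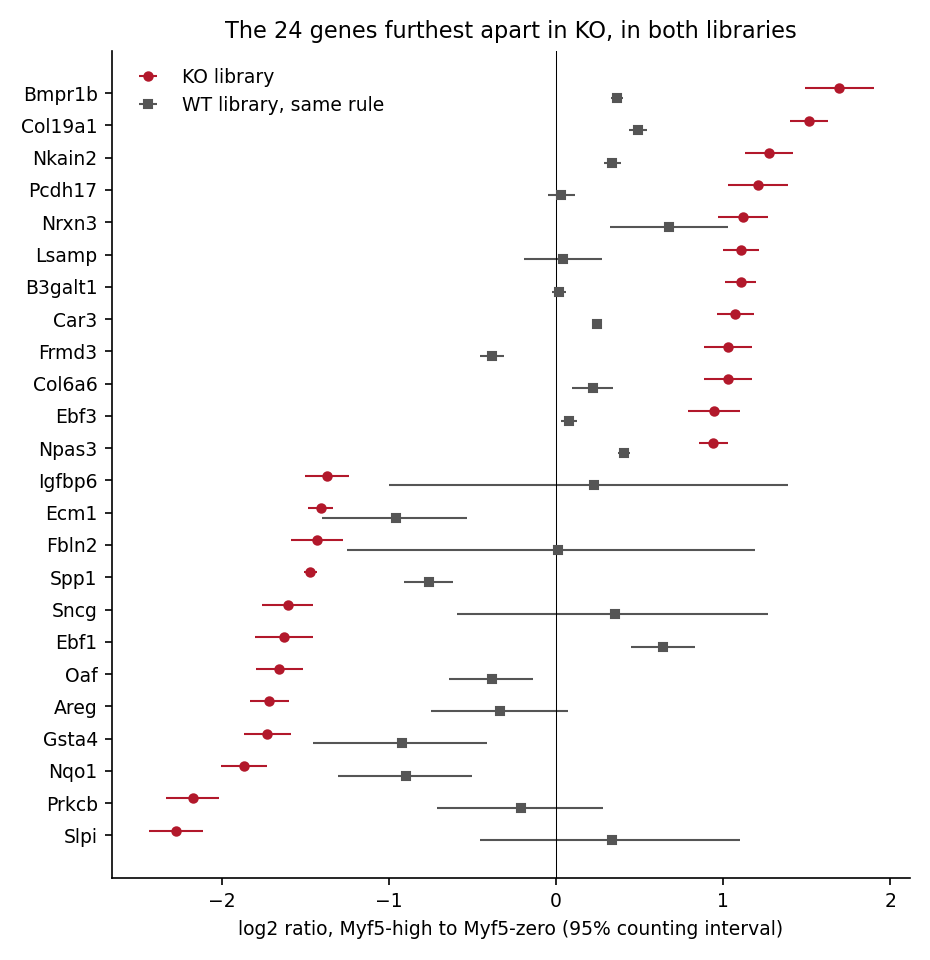
Log2 ratio of Myf5-high to Myf5-zero cells for the 12 highest and 12 lowest genes of the KO library (red circles) and the same genes under the same rule in the WT library (grey squares), with 95% counting intervals. Bmpr1b is at 1.69 in KO and 0.36 in WT, and Slpi at -2.28 in KO with a wide WT interval from few UMIs.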

How the data were processed

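Single-cell 3′ RNA counts came from 1 KO and 1 WT library. For 25906 genes, the deposited matrices give raw UMI counts by barcode, and their file headers name Cell Ranger 7.2.0. The submitters' processing notes list Seurat and the build GRCm39, with no roles. Annotation used here for spans and promoters is GRCm38, another build, and was matched by gene identifier or symbol.

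Group-wise UMI sums were scaled to CPM, with exact 95% Poisson intervals, ratio intervals conditional on the summed count and exact Clopper-Pearson intervals for shares. Genes named are the regulators and gate genes, the 12 highest and 12 lowest ratios with at least 50 CPM in the higher group, up to 4 members per list for 24 lists (450 of 451 genes in the files) and 5 genes by correlation. Genes called in both libraries, single marker genes (Col3a1, Cnn1, Sox10, Ptprc, Cdh15, Fgfr4, Heyl, Itga7, Vcam1, Des) were named after their values were seen. Members and lists were chosen with earlier results of these data known. Doublets were scored with Scrublet (scanpy 1.11.5, expected rate 0.06), which called 144 of 5782 KO and 2 of 7318 WT cells (0.027%), too few in WT to rely on. Alternatives covered scaling (edgeR 4.0.16 TMM), thresholds, depth, phase, doublets, the gate and the WT library. The comparison code was checked on simulated counts.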

Additional observations from a re-analysis of the deposited data

Results flagged for a closer look

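Bmp2, Slc24a2 and Ebf1 passed 1.5-fold in opposite directions in the KO and WT libraries. Each genotype is 1 library, so the difference between libraries was not tested. The BMP ligand gene Bmp2 was at 10.1 CPM in Myf5-high and 4.54 CPM in Myf5-zero KO cells (log2 ratio 1.15), and at 9.01 and 18.5 CPM in WT cells (log2 ratio -1.04). Slc24a2, a sodium, calcium and potassium exchanger gene, was at 40.8 and 24.8 CPM in KO (log2 ratio 0.72) and at 34.1 and 53.03 CPM in WT (log2 ratio -0.64). Ebf1 was at 18.9 and 58.5 CPM in KO (log2 ratio -1.63), and at 10.9 and 7.004 CPM in WT (log2 ratio 0.64). In each KO group 5 cells held much of it, 49.7% of the Myf5-high and 52.6% of the Myf5-zero UMIs. Among KO S cells the log2 ratio of Ebf1 was 1.36, the direction of WT under the same rule. In WT at the KO bound, with 45 Myf5-high cells, it was -0.243, the direction of KO.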

How the results depend on the processing

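The 161 higher and 253 lower genes became 34 and 85 at a 2-fold threshold, 60 and 63 at a minimum of 50 CPM, 530 and 881 at 1 CPM, 353 and 429 with equal-weight depth strata, 63 and 158 after thinning to 20000 UMIs with groups drawn again, 527 and 649 in G1 cells, 274 higher in G2M cells, 256 higher with Myog at 0, 59 and 114 for all cells with a Myf5 UMI, and 14 and 26 in WT. Low minimums and small cell numbers let in more counting noise (163 and 86 cells in G1). The groups drawn again after thinning held 723 and 672 cells. The higher genes were 38.9% of the genes past the threshold, 28.6% at 2-fold, 28.5% after thinning and 50.3% with no Crabp1, Twist2 or Dcn UMI and at most 1 Slpi UMI. TMM scaling gave 161 and 252. Of 63 named genes past 1.5-fold, 46 stayed past it after thinning and 35 in S cells. Among them, log2 ratios that changed sign within KO were Tagln (-0.373) in G1 cells, Cdkn2b (0.424), Ebf1 (1.364), Fst (0.223) and Klf4 (0.034) in S cells, and Ereg (0.990) and Slpi (0.174) with at least 5 Pax7 UMIs, the last chosen after seeing the data. The cause was not tested.

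Of the same 63, in WT under the same rule the sign changed for Acta2 (-0.043), Btg2 (0.061), Col6a2 (0.124), Ebf1 (0.640), Fas (0.177), Fbln2 (0.013), Fgfr1 (0.016), Fn1 (0.040), Frmd3 (-0.384), Id2 (-0.098), Igfbp6 (0.229), Nav3 (-0.012), Rgs2 (-0.052), Sdc4 (0.001), Slpi (0.335) and Sncg (0.354). In WT at the KO bound (45 cells, chosen after seeing the data) it changed for Acta2 (-0.094), Ankrd37 (0.026), Btg2 (0.353), Etv4 (0.131), Eya4 (-0.170), Fn1 (0.119), Frmd3 (-0.557), Gsta4 (0.310), Id2 (-0.095), Lama2 (-0.109), Nav3 (-0.386), Ncoa1 (-0.005), Nkain2 (-0.087), Sdc4 (0.056) and Tagln (-0.053). Of the genes that changed sign in WT under the same rule, only Acta2, Col6a2, Ebf1, Frmd3 and Id2 had a counting interval of the WT ratio clear of 1. Fbln2, Igfbp6, Slpi and Sncg were under 1 CPM in both WT groups, so their WT direction is not settled. No paired analysis was possible because each genotype has 1 library and no test was made. Depth limits genes under 10 CPM, where Myf6 rests on 210 and 52 UMIs.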
